A study of Mus musculus with 2 samples.

Results

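The genes described are 82 mouse genes for keratins, claudins, desmosomal cadherins and other epithelial junction components, out of 18194 genes with a probe set of their own on the array. They were chosen by symbol in the array's annotation: every Krt and Cldn followed by digits except Cldn5, every Dsg and Dsc, and 13 further genes (Cdh1, Epcam, Perp, Sfn, Ocln, Dsp, Jup, Pkp1, Pkp3, Grhl2, Esrp1, Ovol1 and Trp63). The rule reads symbols and no signal, but it was written with earlier results of these data known. The 82 genes comprise 44 keratins, 19 claudins, 6 desmosomal cadherins and the 13 others, and 123 probe sets report them. Their RNA was measured in mouse embryonic fibroblasts (MEFs), cells that grow out of dissociated embryos, prepared at embryonic day 13.5 on a C57BL/6 background. The cultures were untreated and 2 weeks old at harvest. The groups were MEFs from Malat1 knock-out mice, which lack a long noncoding RNA of nuclear speckles, and MEFs from wildtype mice, with 1 Affymetrix array each. The sources used here do not give the part of Malat1 that the allele removes or the number of embryos behind each culture.

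Epithelial cells are tied into sheets by several kinds of junction. Keratins assemble as obligate pairs of a type I and a type II chain into the intermediate filaments of epithelia, with Krt8, Krt18 and Krt19 in simple epithelia, Krt5 and Krt14 in the basal layer of the epidermis, and another set in hair. The filaments are anchored at desmosomes, where the cadherins of the Dsg and Dsc families join cells and desmoplakin, plakoglobin and plakophilins link them to keratin. Claudins form the strands of tight junctions, which seal the space between cells, and E-cadherin holds adherens junctions together. Fibroblasts are mesenchymal, rest on vimentin rather than keratin filaments and form no epithelial sheet, and a MEF culture is a mixture of the embryo's cells rather than a pure type.

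Each array gave 1 log2 signal per probe set, and a gene was represented by its brightest probe set. A gene is called measured on an array where its signal reached that array's median over all probe sets besides controls, 5.44 on the knock-out array and 5.39 on the wildtype array, which serves here as the floor. Malat1 read 4.53 on the knock-out array, below the floor, and 9.80 on the wildtype array. Xist, the RNA of the inactive X chromosome, read 11.49 on the knock-out array and 4.50 on the wildtype array, and the Y-linked gene Eif2s3y read 2.81 in the knock-out and 8.57 in the wildtype, so sex-linked RNA separated the arrays along with genotype and the effects of sex, culture and genotype cannot be told apart. Because each genotype is a single array, the differences have no replicate check and no p-value, and precision is limited by the number of arrays. Differences are knock-out minus wildtype on the log2 scale. The pooled SD of that difference between probe sets of the same gene, 0.20, gives a sense of the spread within these arrays, although such probe sets read the same RNA and are no replicates.

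Most of the epithelial genes gave no signal above the floor in either culture. Of the 82 genes, 23 (28.0%) were measured on both arrays, against 62.1% of all genes, and 54 (65.9%) were below the floor on both, against 34.6% of all genes. Another 5 were measured on the knock-out array alone (6.10%, against 2.28% of all genes) and 0 on the wildtype array alone (against 1.02%). The desmosome plaque genes and Perp were measured on both arrays for 4 of 5, the genes for adhesion, occludin and stratifin for 2 of 4, and the regulators of transcription and splicing for 0 of 4, with Grhl2 measured on the knock-out array alone. Of those below the floor, Cdh1, which encodes E-cadherin, read 3.19 on the knock-out array and 2.66 on the wildtype array, and Ocln, the tight junction protein occludin, read 4.91 in the knock-out and 4.44 in the wildtype. Trp63, the transcription factor of stratified epithelia, read 4.72 in the knock-out and 3.996 in the wildtype, Esrp1, an epithelial splicing regulator, 3.70 in the knock-out and 3.33 in the wildtype, and Ovol1, a zinc finger factor of epidermis, 3.54 in the knock-out and 3.88 in the wildtype. All 6 desmosomal cadherins were below the floor as well. The fibroblast markers were measured on both arrays, 12 of 12, among them Col1a2 at 14.43 in the knock-out and 14.58 in the wildtype and Vim at 14.30 in the knock-out and 14.25 in the wildtype. The cultures thus carried these fibroblast markers, but all 9 macrophage and all 7 neural and glial markers were measured on both arrays too.

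Among the 23 genes measured on both arrays, 3 were higher in the knock-out culture by at least 1.5-fold and 1 was lower by as much. The same thresholds were passed by 0.832% (higher) and 1.61% (lower) of all 11295 genes measured on both arrays. The 3 higher genes were Cldn4, Perp and Krt20, and the lower one was Sfn. Cldn4 alone passed 2-fold upward, which 0.0708% of all genes did, and 0 genes passed 2-fold downward, against 0.266% of all genes. The split at 1.5-fold depended on scaling. It was 4 higher and 0 lower when the median difference was set to 0, 5 and 0 when the arrays were quantile normalized, and 3 and 0 when they were centred by loess. Of all genes, 1.29% were higher and 1.20% lower by as much under the median scaling, 1.46% and 0.965% under quantile, and 1.19% and 1.14% under loess. All genes shifted as well, with 52.4% to 55.0% of them higher under these scalings against 39.2% as deposited. Taken by sign alone, 15 of the 23 were higher in the knock-out culture and 8 lower, a share of 65.2% higher. Of all genes measured on both arrays 39.2% were higher and 59.8% lower. Their median difference was 0.07 and that of all genes -0.05. These counts leave out the 59 genes that missed the floor on an array.

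**Figure D1:**
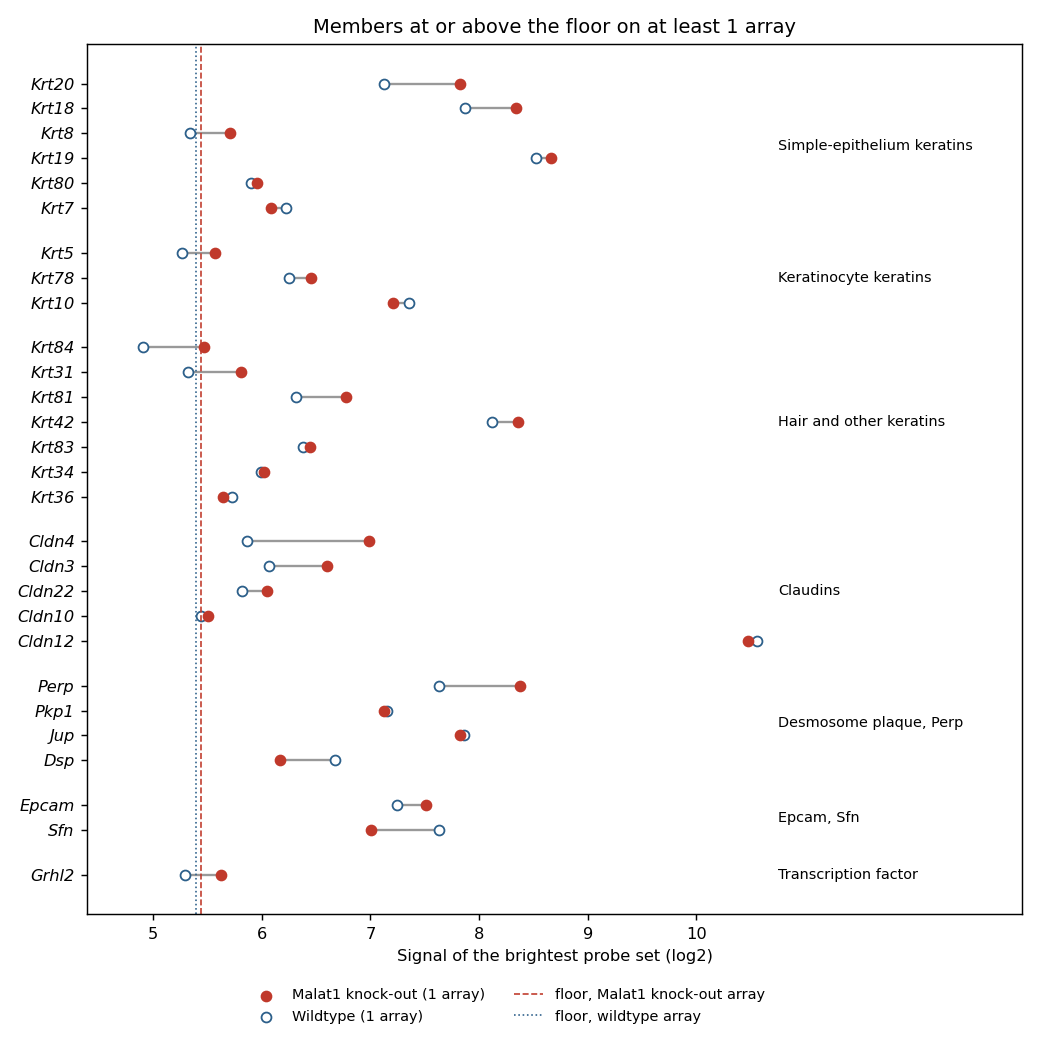
Log2 signal (x axis) of the 28 keratin, claudin and junction genes at or above the floor on at least 1 array, 1 row per gene, with filled points for the Malat1 knock-out array and open points for the wildtype array. The dashed and dotted lines mark the floors of 5.44 and 5.39. Cldn4, Perp and Krt20 have the widest gaps with the knock-out point to the right, and Sfn and Dsp the widest with it to the left.

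The direction of a small difference on these arrays varied with brightness, so the epithelial genes were also counted by signal band beside other genes of like signal. Genes outside the group with a mean signal of 4 to 5 had a median difference of 0.19, with 75.6% of them higher on the knock-out array, and those at 5 to 6 had a median of 0.16 with 69.1% higher. From 6 to 7 the median was -0.01 with 47.4% higher. From 7 to 8 it was -0.11 with 29.3% higher, and from 8 to 9 it was -0.10 with 27.8% higher. The epithelial genes numbered 12 at 5 to 6, of which 11 were higher on the knock-out array, and 8 at 6 to 7, of which 6 were higher. At 7 to 8 there were 6, of which Krt20 and Epcam were higher, and at 8 to 9 all 4 (Perp, Krt18, Krt19 and Krt42) were higher. Krt8, Krt31, Krt84, Krt5 and Grhl2, measured on the knock-out array alone, were among the 12 at 5 to 6. The 95th percentile of other genes there was 0.54, above the differences of these genes except Krt84 (0.56). Near the floor and at 7 to 8 the other genes leaned the same way as the epithelial ones. From 6 to 7 the other genes were close to evenly split, and at 8 to 9 they leaned the other way. Cldn12, alone at 9 to 11, was lower, where 35.2% of other genes were higher.

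**Figure D2:**
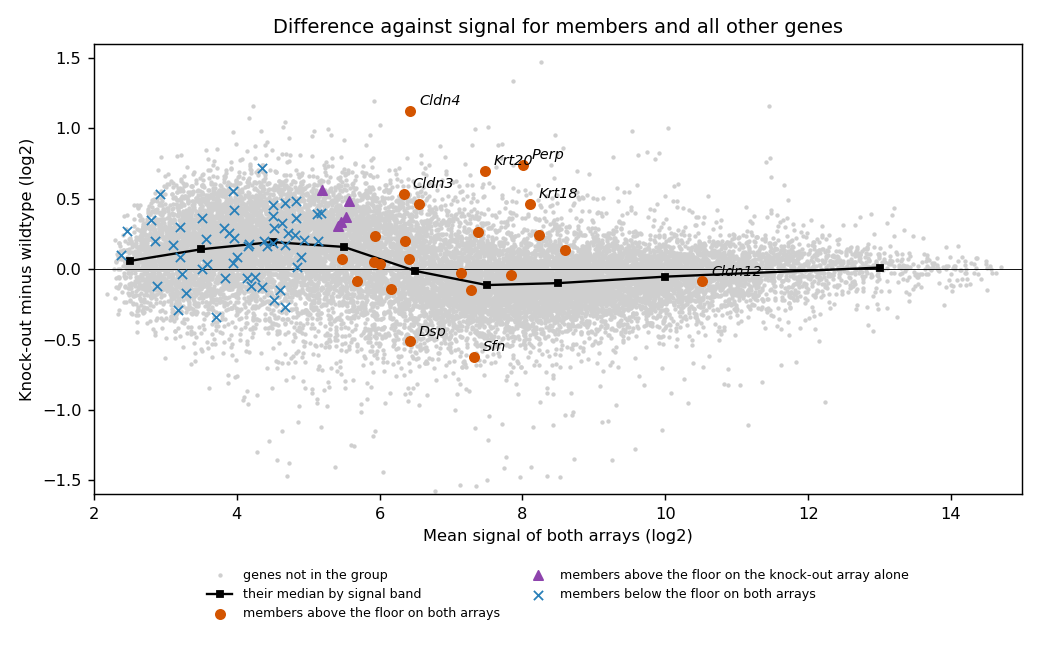
Knock-out minus wildtype difference (y axis, log2) against the mean signal of both arrays (x axis, log2) for the keratin, claudin and junction genes (coloured symbols) and all other genes (grey), with the median of the other genes in each signal band in black. The black line lies above 0 below a signal of 6 and below 0 from 6 to 11, and Cldn4, Krt20, Perp and Krt18 stand above it; 12 genes beyond 1.6 log2 units are not drawn.

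Among the keratins of simple epithelia, Krt20 and Krt18 were higher in the knock-out culture by more than Krt19, Krt80 and Krt7 differed in either direction. Krt20, a type I keratin of intestinal and bladder lining, read 7.83 on the knock-out array and 7.13 on the wildtype array, a difference of 0.70 (1.62-fold higher). Krt18, the type I partner of Krt8, read 8.34 in the knock-out and 7.87 in the wildtype, a difference of 0.47 (1.38-fold higher) that reached 0.59 after quantile normalization. Other genes at 7 to 9 had negative medians, so both keratins lay on the opposite side from them. Krt19, the type I keratin of ductal epithelium, read 8.66 on the knock-out array and 8.53 on the wildtype array, a difference of 0.13, below the SD of 0.20 between probe sets, which became 0.25 after quantile normalization and 0.23 after loess centring, above it. Krt80 read 5.95 in the knock-out and 5.90 in the wildtype, and Krt7, the type II keratin of ducts, read 6.08 in the knock-out and 6.22 in the wildtype, differences of 0.05 and -0.14. Krt8 was measured on the knock-out array alone, at 5.71 against 5.34 on the wildtype array, at least 1.24-fold higher in the values as deposited. With 64 added to the linear values, its difference was 0.15. Neither of its other probe sets reached the floor, with signals of 5.36 and 4.27 on the knock-out array and 5.06 and 4.07 on the wildtype array. Krt23 was below the floor, at 4.04 in the knock-out and 3.96 in the wildtype. On both arrays the signals came from bulk RNA, in which more cells of a type and more RNA per cell cannot be told apart.

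The keratins grouped here as those of keratinocytes, which include some of other stratified epithelia, were for the most part not measured, with 13 of 16 below the floor on both arrays. Krt14 and Krt5 form the basal layer pair. Krt14 read 4.25 on the knock-out array and 4.08 on the wildtype array, and Krt5 read 5.57 in the knock-out and 5.26 in the wildtype, above the floor on the knock-out array alone and at least 1.13-fold higher. Krt1 and Krt10 form the pair of differentiating layers. Krt1 was below the floor, at 4.60 in the knock-out and 4.42 in the wildtype, while Krt10 was measured on both arrays, at 7.20 on the knock-out array and 7.35 on the wildtype array, a difference of -0.15. Krt78, a type II keratin, read 6.45 in the knock-out and 6.25 in the wildtype, a difference of 0.20. Neither passed 1.5-fold. Krt2, Krt4, Krt12, Krt13, Krt15, Krt16, Krt17, Krt75, Krt76, Krt77 and Krt79 were the other genes below the floor, and the 13 had a median difference of 0.17, with 8 higher and 5 lower. All genes below the floor on both arrays had a median of 0.15, with 71.8% higher on the knock-out array.

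The keratins of hair, its inner sheath and other sites had 5 of 21 genes measured on both arrays and a median difference of 0.07. Krt81, a type II hair keratin, had the largest difference of these, reading 6.78 on the knock-out array and 6.32 on the wildtype array, 0.46 higher. Krt42, a type I keratin, read 8.36 in the knock-out and 8.12 in the wildtype, 0.24 higher, from a probe set of the kind that can pick up related transcripts, and its second probe set was below the floor at 4.52 in the knock-out and 4.27 in the wildtype. The type I hair keratins Krt34 and Krt36 read 6.02 and 5.64 on the knock-out array and 5.99 and 5.72 on the wildtype array. The type II hair keratin Krt83 read 6.45 in the knock-out and 6.38 in the wildtype. Krt31 and Krt84 were measured on the knock-out array alone, Krt31 at 5.81 against 5.32 in the wildtype (at least 1.33-fold higher) and Krt84 at 5.47 against 4.90 in the wildtype (at least 1.05-fold higher). The other 14 (Krt24, Krt25, Krt26, Krt27, Krt28, Krt32, Krt35, Krt71, Krt72, Krt73, Krt82, Krt86, Krt88 and Krt222) were below the floor, with differences from -0.22 to 0.42, and Krt35 carried the identical value of 3.52 on both arrays.

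Of the claudins, 5 of 19 were measured on both arrays, with a median difference of 0.24, and Cldn4 stood furthest from 0. Cldn4, a tight junction claudin of ducts, airways and other tight epithelia, read 6.99 on the knock-out array and 5.86 on the wildtype array, a difference of 1.13 (2.18-fold higher). Genes of like signal had a median of -0.01, with a 5th percentile of -0.50 and a 95th of 0.45. Cldn4 has a single probe set, and its wildtype signal lay near the floor. With 64 added to the linear values, the difference was 0.64. Cldn3, which lies next to Cldn4 on chromosome 5 with 0 genes between them in RefSeq, read 6.60 on the knock-out array and 6.07 on the wildtype array, 0.54 higher at its brightest probe set. The other Cldn3 probe sets did not give one size: a second measured on both arrays read 5.75 in the knock-out and 5.65 in the wildtype (0.10 higher), another read 5.62 in the knock-out and 5.06 in the wildtype and was above the floor on the knock-out array alone, and the last, below the floor, read 4.98 in the knock-out and 5.08 in the wildtype (0.10 lower, -0.10). Both Cldn3 probe sets with small differences and both with differences above 0.5 are shown in the plot of probe sets.

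Cldn12, a claudin that is widespread outside epithelia, was bright on both arrays and nearly equal between them, at 10.47 on the knock-out array and 10.56 on the wildtype array (-0.09), and its second probe set read 8.62 in the knock-out and 8.68 in the wildtype (-0.07). Cldn22 read 6.05 in the knock-out and 5.81 in the wildtype, 0.24 higher in the knock-out culture. Cldn10 read 5.51 in the knock-out and 5.44 in the wildtype, 0.07 higher, at the floor, and this sign turned after loess centring. The remaining 14 claudins were below the floor on both arrays: Cldn1, Cldn2, Cldn6, Cldn7, Cldn8, Cldn9, Cldn11, Cldn13, Cldn14, Cldn15, Cldn16, Cldn18, Cldn19 and Cldn23. Their differences ran from -0.15 to 0.38 with a median of 0.22, and 11 were higher and 3 lower. A share of 11 in 14 is close to the 71.8% of all genes below the floor.

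The proximal promoters of Cldn4, Krt20 and Sfn, which passed 1.5-fold, and of Cldn3 as the neighbour of Cldn4, give the sequence beside each start site. The sequences are the 250 bases before the start on the gene's own strand, from RefSeq for GRCm38.p6, with Cldn4 at chr5:134946935-134947184 (minus strand), Cldn3 at chr5:134985964-134986213 (plus strand), Krt20 at chr11:99438154-99438403 (minus strand) and Sfn at chr4:133602169-133602418 (minus strand). Perp, the other gene past 1.5-fold, is not shown. Capitals mark the motifs, each searched on both strands. The first is CACCTG, the E-box that Snai1, Snai2, Zeb1 and Zeb2, repressors of epithelial genes, are known to bind. The second is the promoter element TATAAA. The last is the GC box, spelled GGGCGG, whose reverse complement appears in capitals where the match is on the other strand. The motifs do not overlap one another.
Cldn4: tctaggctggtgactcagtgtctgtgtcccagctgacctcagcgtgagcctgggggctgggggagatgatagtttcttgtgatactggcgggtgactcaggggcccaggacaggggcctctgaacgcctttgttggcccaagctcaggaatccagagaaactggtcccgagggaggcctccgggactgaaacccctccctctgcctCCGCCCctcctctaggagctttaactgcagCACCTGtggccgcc
Cldn3: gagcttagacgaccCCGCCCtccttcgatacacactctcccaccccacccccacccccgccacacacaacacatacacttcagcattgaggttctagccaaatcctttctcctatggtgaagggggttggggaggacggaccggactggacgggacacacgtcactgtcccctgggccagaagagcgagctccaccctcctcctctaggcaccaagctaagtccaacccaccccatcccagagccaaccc
Krt20: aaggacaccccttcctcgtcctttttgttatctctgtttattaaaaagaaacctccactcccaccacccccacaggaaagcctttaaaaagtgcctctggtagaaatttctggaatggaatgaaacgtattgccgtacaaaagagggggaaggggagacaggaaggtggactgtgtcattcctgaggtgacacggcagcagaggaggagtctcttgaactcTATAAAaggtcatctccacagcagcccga
Sfn: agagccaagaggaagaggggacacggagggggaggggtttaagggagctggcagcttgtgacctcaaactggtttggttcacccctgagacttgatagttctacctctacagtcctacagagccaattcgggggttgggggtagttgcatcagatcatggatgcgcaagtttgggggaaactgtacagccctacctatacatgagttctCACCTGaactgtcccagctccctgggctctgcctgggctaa
The Cldn4 window holds a CACCTG from 14 to 9 bases before the start and a GC box from 44 to 39 bases before it, while the Cldn3 window holds a GC box alone, far upstream. The Krt20 window has a TATA box 29 to 24 bases before the start. The Sfn window has a CACCTG 41 to 36 bases before the start. Cldn4 was higher and Sfn lower in the knock-out culture, and a role of the E-box in either difference was not tested. Of the 51 keratin, claudin and junction genes with a promoter in the table, 18 had a CACCTG in at least 1 window, and 18 of their 61 windows (29.5%) held one, against 17.2% of all 32851 windows. TATAAA was in 16 of the 61 windows (26.2%) against 12.4%, and GGGCGG in 18 (29.5%) against 32.7%. A match is a description of the letters and not evidence of binding.

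The desmosomal cadherins were not measured, while most genes of the desmosome's plaque were. The transmembrane cadherins Dsg1a, Dsg1b, Dsg2, Dsc1, Dsc2 and Dsc3 were below the floor on both arrays, with signals of at most 4.55 on the knock-out array and 4.81 on the wildtype array and differences from -0.27 to 0.55. Of the plaque genes, Jup, which encodes plakoglobin and also serves adherens junctions, read 7.83 on the knock-out array and 7.86 on the wildtype array. Pkp1, the plakophilin of stratified epithelia, read 7.12 in the knock-out and 7.15 in the wildtype. Those differences of -0.04 and -0.03 turned positive under each of 3 other scalings, to at most 0.09 and 0.08. Pkp3 was below the floor, at 5.38 in the knock-out and 4.98 in the wildtype.

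Perp and Dsp were the desmosome genes with sizeable differences, in opposite directions. Perp, a membrane protein of desmosomes that is also a target of p53, read 8.37 on the knock-out array and 7.63 on the wildtype array, a difference of 0.74 (1.67-fold higher) from its only probe set. Its difference ran from 0.59 to 0.86 over 11 alternative settings. Dsp, which encodes desmoplakin, the link between plaque and keratin, read 6.17 on the knock-out array and 6.68 on the wildtype array, a difference of -0.51 (1.43-fold lower). That Dsp probe set is of the kind that can pick up related transcripts. Without probe sets of this kind the Dsp difference was -0.21, close to the SD of 0.20 between probe sets. A second Dsp probe set read 5.60 in the knock-out and 5.80 in the wildtype (-0.21), and the last was below the floor at 3.72 in the knock-out and 3.58 in the wildtype. The median over the 4 measured genes of this set was -0.03, a sign that turned with scaling.

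**Figure D3:**
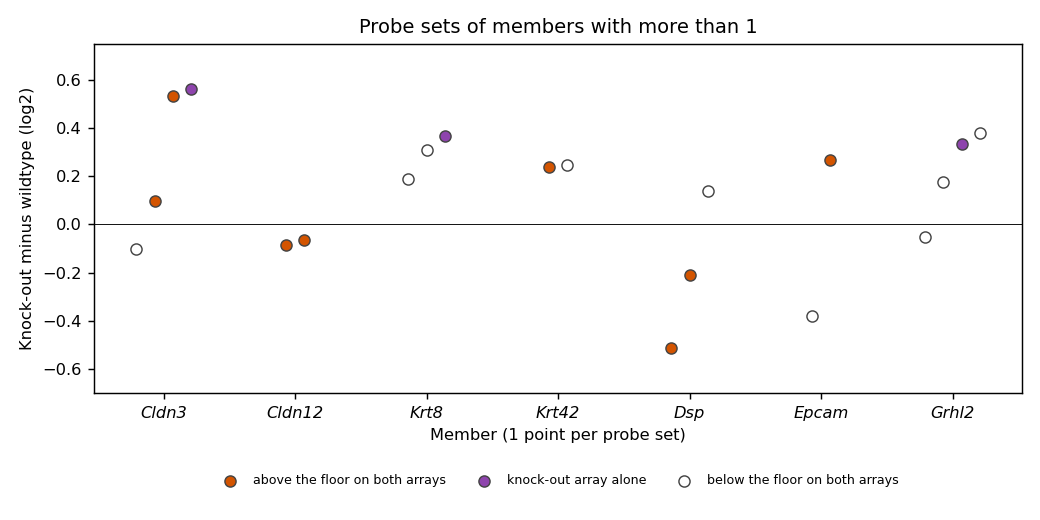
Knock-out minus wildtype difference (y axis, log2) of each probe set of the 7 genes above the floor with more than 1 probe set, filled orange where both arrays were above the floor, purple where the knock-out array alone was, and open where neither was. The probe sets of Cldn12, Krt8 and Krt42 fall on one side of 0, and those of Cldn3, Dsp, Epcam and Grhl2 on both.

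The remaining genes were those for adhesion, cell cycle control and regulation. Sfn, the 14-3-3 sigma protein of stratified epithelia and a p53 target, read 7.005 on the knock-out array and 7.63 on the wildtype array, a difference of -0.62 (1.54-fold lower). It was -0.56, -0.51 and -0.52 under the median, quantile and loess scalings, so it stayed lower but did not pass 1.5-fold there. Perp, the other p53 target named here, was higher in the knock-out culture, and a part of p53 in either difference was not tested. Epcam, an epithelial adhesion molecule, read 7.51 on the knock-out array and 7.24 on the wildtype array, 0.27 higher, from a probe set of the kind that can pick up related transcripts. Its other probe set was below the floor and read 4.28 in the knock-out and 4.66 in the wildtype, 0.38 the other way (-0.38). Grhl2, a transcription factor that maintains epithelial junction genes, was above the floor on the knock-out array alone, at 5.62 against 5.29 in the wildtype, at least 1.17-fold higher. Its other 3 probe sets were below the floor, with differences of -0.05, 0.18 and 0.38. The Grhl2 difference at the brightest probe set was 0.33. Genes outside the group at its signal of 5 to 6 had a median of 0.16 and a 95th percentile of 0.54.

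Genes that work with these junctions but lie outside the group were then read from lists of partners and regulators. Of 18 tight junction partners 12 were measured, and of these 7 were higher and 5 lower in the knock-out culture, with 0 past 1.5-fold. Of all genes measured on both arrays, 39.2% were higher and 59.8% lower. Jam2, a junctional adhesion molecule, differed by 0.52, Crb3, an apical polarity protein, by 0.51 and Lsr, of tricellular junctions, by 0.46. Cxadr, a junctional receptor, differed by -0.57 at its brightest probe set (5.76 on the knock-out array and 6.34 on the wildtype array) and by 0.27 at another (5.90 in the knock-out and 5.63 in the wildtype). Adherens junction and catenin genes, measured for 12 of 14, had a median of 0.00 with 6 higher and 6 lower. Of these the cadherin Cdh13 differed by -0.50, Nectin1 by 0.37, Afdn by -0.34 and the mesenchymal cadherin Cdh11 by -0.25. The 6 measured of 12 other desmosome and hemidesmosome genes stayed between -0.24 and 0.24, with Itga6 at 0.24, Plec at -0.24, Dst at -0.17 and Pkp4 at -0.16.

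Other epithelial genes had 8 of 26 measured on both arrays, with a median of 0.06, 6 of them higher and 2 lower. Across all genes measured on both arrays, 39.2% were higher and 59.8% lower. The GTPase Rab25 differed by 0.46, the transcription factor Elf3 by 0.34 and the surface protein Cd24a by 0.24. Klf5, a transcription factor of epithelial progenitors, differed by -0.73, at 7.67 on the knock-out array and 8.40 on the wildtype array, and was the only one of the 8 past 1.5-fold. The list for epithelial-mesenchymal transition, which holds transcription factors and also the mesenchymal filament gene Vim and the matrix gene Fn1, was measured throughout. Of these 11 genes, 9 were lower in the knock-out culture and 2 (Vim at 0.05 and Twist2 at 0.04) higher, with a median of -0.12 and 0 past 1.5-fold, while genes outside the group at a signal of 8 to 9 had a median of -0.10 and those at 9 to 11 one of -0.05. Snai1 read 6.21 on the knock-out array and 6.70 on the wildtype array (-0.49), and Twist1, Snai2 and Prrx1 differed by -0.27, -0.26 and -0.25. Genes outside the group at 6 to 7, the signal of Snai1, had a median of -0.01 and a 5th percentile of -0.50. At 11 to 15, that of Vim and Fn1, the median was 0.01.

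**Figure D4:**
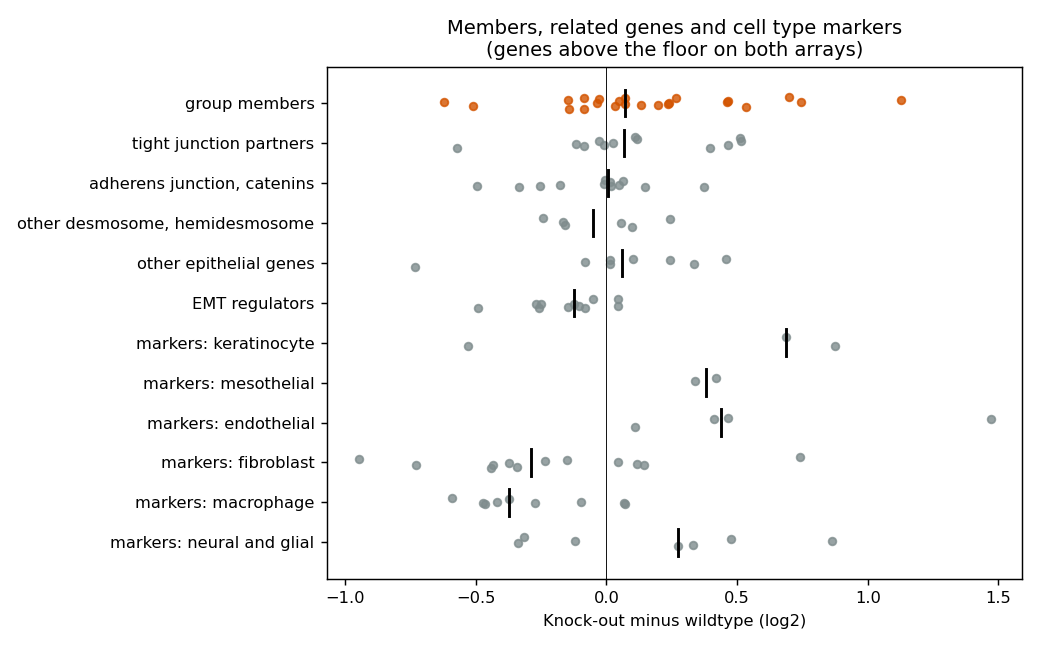
Knock-out minus wildtype difference (x axis, log2) of each gene measured on both arrays, for the keratin, claudin and junction genes (orange), lists of related genes and lists of cell type markers (grey); black bars are medians. The orange points run from -0.62 to 1.13 around a median of 0.07. Of the marker lists, the bars for fibroblast and macrophage markers lie below 0. Those for keratinocyte, mesothelial, endothelial, and neural and glial markers, with 3, 2, 4 and 7 genes, lie above it.

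Markers of cell types that share these genes differed in part in the same direction. Of 13 keratinocyte markers, 3 were measured on both arrays and 2 on the knock-out array alone. The cornified envelope genes Sprr1a and Lor read 7.28 and 6.95 on the knock-out array and 6.41 and 6.27 on the wildtype array, while Sbsn read 7.37 in the knock-out and 7.90 in the wildtype. A second Lor probe set read 5.89 in the knock-out and 5.85 in the wildtype. Flg, Krtdap, Tgm1, Sprr1b, Sprr2d, Lce1a1, Csta1 and Dmkn were below the floor. The summed linear signal of the list was 691 on the knock-out array and 595 on the wildtype array. This sum and the next ones include genes below the floor, and of all genes below it on both arrays 71.8% were higher on the knock-out array. Of 9 mesothelial markers, whose cells carry Krt8, Krt18 and Krt19, Upk1b and Nkain4 were measured (0.42 and 0.34 higher). Genes outside the group at a signal of 5 to 6, that of Upk1b and Nkain4, had a median of 0.16 and a 95th percentile of 0.54. Msln, Wt1, Upk3b, Muc16, Lrrn4, Rspo1 and Gpm6a were below the floor, and the mesothelial sum was 248 in the knock-out and 199 in the wildtype. Of 11 endothelial markers, the 4 measured on both arrays were all higher in the knock-out culture. Emcn differed by the most, at 8.996 on the knock-out array and 7.53 on the wildtype array (2.77-fold higher). Kdr, Flt1 and Egfl7 differed by 0.47, 0.41 and 0.11. Erg was above the floor on the knock-out array alone, at 5.50 against 5.32 in the wildtype. Its second probe set read 4.84 in the knock-out and 5.34 in the wildtype. Esam, above the floor on the wildtype array alone, read 5.37 in the knock-out and 5.41 in the wildtype. Pecam1, Cdh5, Tie1, Tek and the endothelial claudin Cldn5 were below the floor, of which 3 were higher, 1 lower and 1 equal. The endothelial sum was 1489 in the knock-out and 983 in the wildtype, with Flt1 and Emcn, the brightest of the list, weighing most in it. Of the 12 fibroblast markers 4 were higher and 8 lower, with differences from -0.95 to 0.74, and their sum was 73070 in the knock-out and 83232.5 in the wildtype. Of 9 macrophage markers, all measured, 2 were higher and 7 lower, and the sum was 3330 on the knock-out array and 4110 on the wildtype array. Of 7 neural and glial markers, all measured, 4 were higher and 3 lower, with Gap43 at 0.86 and Nes at 0.28 higher and Tubb3 and Stmn2 at -0.32 and -0.34, and the sum was 2450 in the knock-out and 2072 in the wildtype. Beside these sign counts of the marker lists, 39.2% of all genes measured on both arrays were higher and 59.8% lower. At a signal of 7 to 8, 29.3% of genes outside the group were higher. The part that the makeup of the cultures has in the differences of Cldn4, Perp, Krt20 and Krt18 was not tested.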

How the data were processed

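The deposited table holds a value for each probe set on each array, read here as log2 signals because of its range; how the authors summarized and normalized the arrays is not given in the sources used. Per the labels' protocols, 100 ng of total RNA went into the biotin labelling. There were 45037 probe sets besides 64 controls. With controls included, 34958 had 1 gene symbol in the platform's annotation, and 932 with several (1 of them shared by Krt14 and Krt17) were left out. Controls with 1 symbol were kept among the genes. All 82 genes matched RefSeq (GRCm38.p6) by gene ID with the same symbol; RefSeq served for chromosomes, gene order and promoters.

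With 1 array per genotype no test was run. Members and lists were chosen with earlier results of these data known. A gene was represented by its brightest 1-symbol probe set, taken over the mean of the arrays. For a gene measured on 1 array, the fold is a lower bound for the values as deposited, taken from the measured signal and the floor of the other array. With 64 added to linear values, the differences of Krt8, Krt31, Krt5 and Grhl2 (0.15, 0.21, 0.12 and 0.14) were smaller than this bound. Counts used 1.5-fold and 2-fold, beside the same share of all genes measured on both arrays. Genes named are every member above the floor on at least 1 array, members below it by family, and up to 4 genes of each list of related genes by size of difference. Of each marker list, up to 4 genes by mean signal and those below the floor are named, and for endothelial markers also those measured on 1 array. A few further names on the lists of related genes and markers were not analysed here and are not in their counts. Alternatives covered scaling (median difference set to 0, quantile, loess with a span of 0.3), the floor (none, 75th or 40th percentile), 16 or 64 added to linear values, and the choice of probe set. The computation of calls was checked on simulated arrays with known changes, which gives no error rate for these differences. Python 3.11.15, pandas 2.3.3, statsmodels 0.14.6 and matplotlib 3.10.9 were used.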

Additional observations from a re-analysis of the deposited data

How the results depend on the processing

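No paired analysis was possible because there is a single array for each genotype. Each result was recomputed under 11 alternatives. The count of keratin, claudin and junction genes higher by at least 1.5-fold was 3 as deposited, 5 after quantile normalization and 0 at a 75th-percentile floor, where 5 of the genes were measured. The shares of all genes were 0.832%, 1.46% and 0.336%. The count lower by at least 1.5-fold, 1 as deposited (Sfn), was 0 under the median, quantile and loess scalings, with 16 or 64 added to linear values and with the 75th percentile as floor. Of all genes, 1.61% were lower by as much as deposited and 0.646% to 1.20% under those settings. The count higher by at least 2-fold, 1 as deposited (Cldn4), was 0 with 16 or 64 added and with the 75th percentile as floor. Of all genes, 0.0708% passed it as deposited, 0.0354% with 16 or 64 added and 0.0292% with that floor. Signs of 15 higher and 8 lower became 3 and 2 at a 75th-percentile floor, 26 and 8 at the 40th, and 60 and 21 without a floor, where dim genes enter. Of all genes, 39.2% were higher as deposited, 34.5% at the 75th-percentile floor, 43.4% at the 40th and 51.5% without a floor. The median of desmosome plaque genes and Perp, -0.03, became 0.028, 0.086 and 0.068 under the median, quantile and loess scalings, and that of Epcam and Sfn, -0.18, became 0.37 without a floor, where Cdh1 and Ocln enter. The median over all measured genes of the group stayed above 0 in all 11 alternatives. Cldn4, Perp, Krt20 and Krt18 stayed higher, and Sfn and Dsp lower, in every alternative that gave a value, with ranges of 0.64 to 1.19, 0.59 to 0.86, 0.51 to 0.81, 0.38 to 0.59, -0.62 to -0.44 and -0.51 to -0.21. A gene below the floor under an alternative has no value there. Signal near the floor limits Cldn4, Cldn3 and the 5 genes measured on the knock-out array alone.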

Other observations

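The keratin genes lie in 2 clusters, type I genes on chromosome 11 (with the type I-like Krt222) and type II genes, with Krt18, on chromosome 15. Each held 22 of the 44 keratins, and 6 of each 22 were measured on both arrays. On chromosome 15, 5 of these 6 were higher in the knock-out culture with a median difference of 0.13, and on chromosome 11, 4 of 6 with a median of 0.08. Krt20, at 0.70, lay between Krt12 and Krt23 among the keratins on the array, both below the floor on both arrays with differences of -0.29 and 0.09. Krt18, at 0.47, and Krt8, at 0.37, lay side by side at one end of the chromosome 15 cluster. Krt81, at 0.46, lay between Krt88 and Krt86, below the floor, with differences of 0.36 and -0.22. Among keratins below the floor, 11 of 13 on chromosome 15 and 8 of 15 on chromosome 11 were higher on the knock-out array, against 71.8% of all genes below the floor.

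Exactly equal values on both arrays occurred for 5 of the 123 probe sets, 2 of Krt13 and 1 each of Cldn9, Dsc2 and Krt35, all below the floor. Over the arrays 1210 probe sets were equal, 974 of them below the floor, so an equal value at low signal says little about the gene.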
